A study of Mus musculus with 8 samples.

Results

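The genes described here are 41 genes of DNA replication and S phase, measured by RNA sequencing in mouse CD8+ T cells. They were taken by exact gene symbol from a deposited table of 41730 genes and comprise the replicative helicase, origin licensing and firing factors, the sliding clamp and its loader, DNA polymerases and primase, fork maturation enzymes, enzymes of deoxynucleotide synthesis and regulators of the G1/S transition. Every member was found in the table, and all 41 passed the filter on low counts, with 747 to 35216 counts in any library. The choice of members did not use measured values, but it was made with earlier results of these data known.

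The cells were OT-I T cells, whose transgenic T cell receptor recognises SIINFEKL, a peptide of ovalbumin. They had been cultured with peptide-pulsed dendritic cells grown from bone marrow that lacked the liver X receptors (LXR) and then purified by flow cytometry. One group of 4 libraries came from cultures with 2 uM RGX-104, a synthetic LXR agonist, and the other group of 4 libraries came from control cultures with the solvent DMSO. The T cells of both groups were OT-I, both had met LXR-/- dendritic cells, and no LXR mutation of the T cells is given in the labels. The labels state neither the age and sex of the animals nor whether libraries of one group derive from separate animals or cultures. The p-values therefore reflect the spread among these libraries alone, and that spread may be technical.

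An activated CD8+ T cell divides rapidly. In G1, origins of replication are licensed when the origin recognition complex, Cdc6 and Cdt1 load the Mcm2-7 helicase onto DNA. In S phase the helicase is activated with Cdc45 and the GINS complex, the clamp Pcna is loaded by replication factor C, and polymerases alpha, delta and epsilon copy the strands. Many of these genes are transcribed at the G1/S transition under control of E2F factors, which are released as cyclin-dependent kinases phosphorylate the retinoblastoma protein.

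Library totals were 30642316 to 35244624 counts with RGX-104 and 33942140 to 37714355 counts in controls. Levels are given in CPM (counts scaled to a common library size) after trimmed mean of M values (TMM) scaling. Abca1, the cholesterol efflux transporter and a direct LXR target, was at 125 ± 6.21 CPM with RGX-104 and 1.72 ± 0.295 CPM in controls (SD, n = 4 each), and Abcg1, another such transporter and target, at 159 ± 2.96 CPM with RGX-104 and 43.3 ± 1.4 CPM in controls, so the groups separated by agonist as labelled. The 5 myeloid transcripts Lyz2, Csf1r, Spi1, Tyrobp and Fcer1g reached at most 13 counts in any library. They belong to a list of 20 myeloid and dendritic cell markers, given in full below. Of the 8 tested genes of that list 7 had positive log2 fold changes, and Cd74 and Ccl22 were called higher with RGX-104. The pair of libraries closest to each other was RGX-104 replicates 2 and 3, with a chi-square per degree of freedom of 1.36 against 2.34 to 3.55 for the other RGX-104 pairs and 3.01 to 6.80 for control pairs. Because each library averages over many cells, fewer cells in S phase and less RNA per S phase cell cannot be told apart in any value below.

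A minority of the replication genes, led by the helicase, fell slightly with RGX-104. Of the 41 members, 10 fell and 0 rose in the edgeR quasi-likelihood test at a Benjamini-Hochberg adjusted p under 0.05, and 31 did not pass. DESeq2 and limma-voom also called 0 members higher, and the 17 members with an unadjusted p under 0.05 in edgeR were all lower, where 10.7% of all tested genes were lower at that p and 22.2% passed it in either direction. A p that misses the threshold does not show that a gene did not change. The 10 were the helicase genes Mcm2, Mcm4, Mcm5, Mcm6 and Mcm7, the licensing genes Orc1 and Cdt1, the clamp loader gene Rfc3, the polymerase delta gene Pold2 and the base excision gene Ung. These genes fell by 6.09% (Mcm5) to 8.01% (Rfc3), and no member changed by 1.1-fold. That share of 24.4% called lower compares with 4.13% of all 13290 genes tested and with 5.78% of the 6590 tested genes at or above the level of the lowest member. The lowest member, Ccne2, was at 26.1 CPM in controls, whereas each called member had at least 67.8 CPM there. The 6590 genes are therefore not matched to the members in level. The members also have smaller SEs, given below, with which small changes are more easily called. The share of all tested genes called higher was 4.82%.

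In RefSeq annotation on GRCm38.p6 the called helicase genes lie as follows, Mcm2 at chr6:88883474-88898780, Mcm4 at chr16:15623897-15637400, Mcm5 at chr8:75109468-75128439, Mcm6 at chr1:128331575-128359705 and Mcm7 at chr5:138164583-138172111. The other called genes are Orc1 at chr4:108575705-108616030, Cdt1 at chr8:122568015-122573130, Rfc3 at chr5:151642817-151651208, Pold2 at chr11:5872180-5878256 and Ung at chr5:114130366-114139321. Exons of 14 of the 41 members overlap those of another annotated gene, which are named below for the genes most affected.

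The count of 10 depended on single libraries. It was 3 without RGX-104 replicate 1, 5 without replicate 2, 6 without replicate 3 and 6 without replicate 4. Without control replicates 1 to 4 it was 11, 8, 4 and 7. The number of all genes called lower, 549 in the full fit, also changed. It was 378 to 403 without an RGX-104 replicate, 377 without control replicate 3 and 460 to 621 without another control replicate. Mcm2 and Mcm7 passed under all 18 alternatives tried, including a threshold of 0.01, at which they were the 2 members called.

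The direction was shared more widely than the calls. The fitted log2 fold change was below 0 for 33 of the 41 members, with a median of -0.05, whereas it was below 0 for 49.6% of all tested genes, with a median of 0.00. Among the 6590 genes of at least the lowest member's level 58.6% were below 0. All 4 RGX-104 libraries lay below all 4 control libraries for 16 members (39.0%, against 7.45% of all tested genes), namely the 10 called genes and Mcm10, Gins1, Gins2, Rfc5, Pold1 and Fen1. For 0 members did all RGX-104 libraries lie above all controls, against 7.07% of all tested genes. Unlike the share below 0, the shares of separated genes were not taken for genes of at least the lowest member's level. The median SE was 0.05 over all tested genes and 0.03 over the members. All shares given here describe the members and carry no test of the group.

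**Figure D1:**
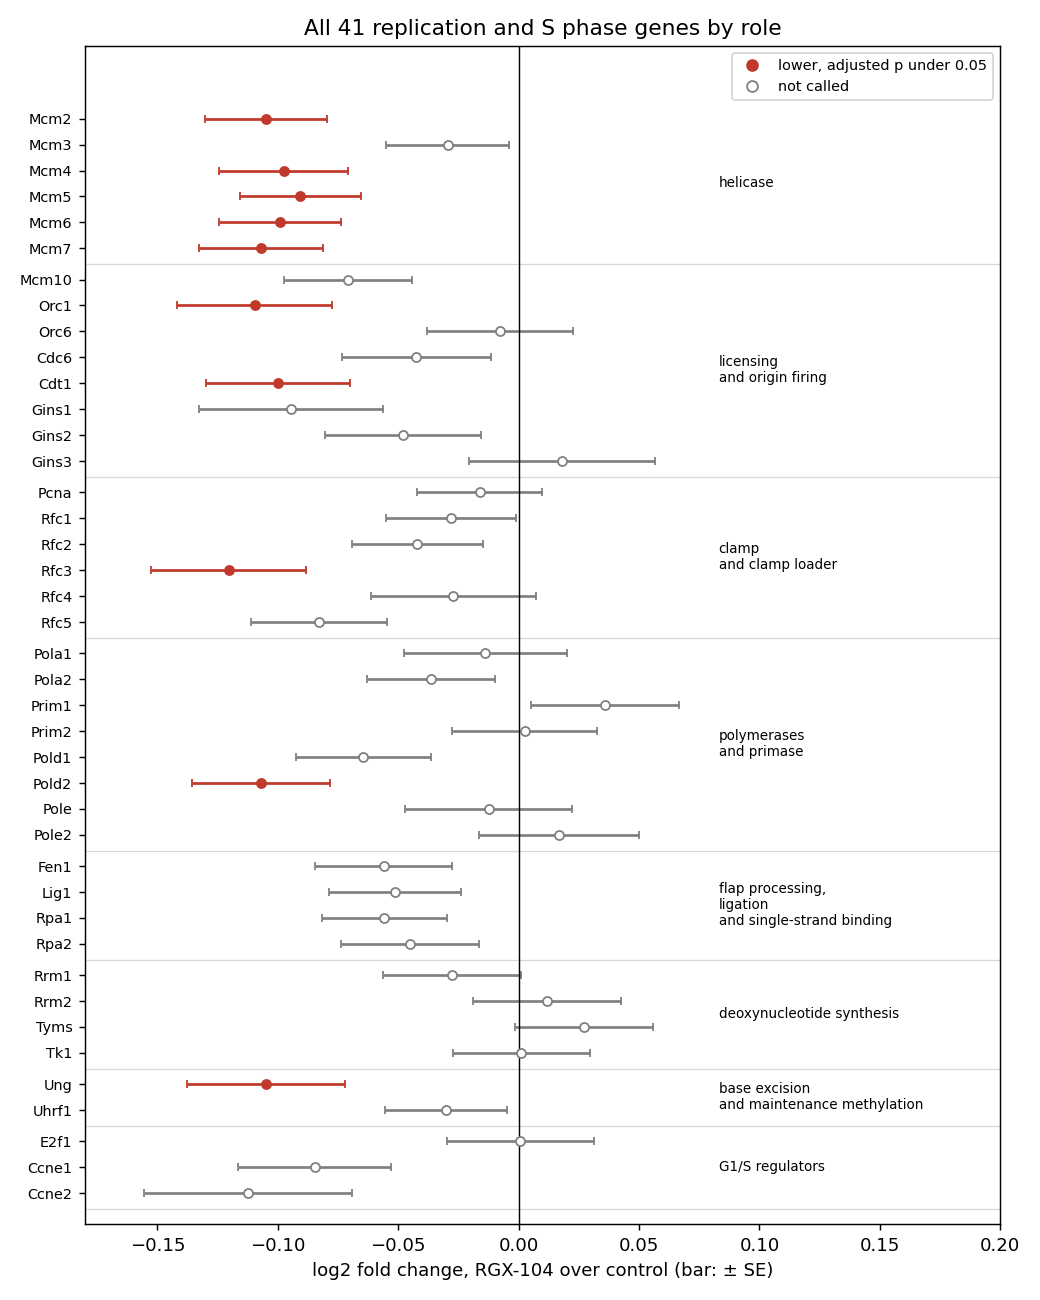
The plot of all 41 members gives the log2 fold change of RGX-104 over control on the horizontal axis with bars of ± 1 SE, 1 row per gene grouped by role, filled where the adjusted p was under 0.05. The 10 filled points lie between -0.12 and -0.09, 5 of them in the helicase, and the 4 genes of deoxynucleotide synthesis sit between -0.03 and 0.03.

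Most of the helicase genes fell with RGX-104. Mcm2 to Mcm7 encode the 6 subunits of the ring that unwinds DNA at the fork. Of these genes 5 fell and 1, Mcm3, did not pass.

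Mcm2 was at 431, 442, 437 and 439 CPM with RGX-104 (replicates 1 to 4), against 466, 476, 461 and 478 CPM in control replicates 1 to 4. It fell by 7.01% (log2 fold change -0.10 ± 0.03, SE; edgeR adjusted p = 0.00786), and its groups did not overlap. Mcm7 was at 506, 524, 523 and 513 CPM with RGX-104 and 551, 548, 556 and 570.4 CPM in controls. It fell by 7.14% (-0.11 ± 0.03, SE; edgeR adjusted p = 0.00724), again without overlap. Exons of Mcm7 overlap Ap4m1 and Cops6 on the opposite strand, and the labels do not state whether counting used strand, so reads of these genes may be shared.

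Mcm6 had 847, 875, 873 and 859 CPM in RGX-104 libraries and 903, 914, 934 and 949 CPM in control libraries, and fell by 6.64% (-0.10 ± 0.03, SE; edgeR adjusted p = 0.0126). Mcm4 had 567, 577, 589.5 and 575 CPM with RGX-104 and 595, 618, 618 and 639 CPM in controls, and fell by 6.54% (-0.10 ± 0.03, SE; edgeR adjusted p = 0.0201). Mcm5 had 679.5, 703, 712 and 705 CPM with RGX-104 and 748, 733, 744 and 756 CPM in controls, and fell by 6.09% (-0.09 ± 0.03, SE; edgeR adjusted p = 0.0226). In all 3 genes the lowest library was RGX-104 replicate 1 and the highest was control replicate 4, and the highest RGX-104 library stayed below the lowest control. Mcm4 and Mcm5 lost their call without RGX-104 replicate 1, 2 or 4 or control replicate 3 (adjusted p up to 0.0698 and 0.0927), and Mcm6 lost it without RGX-104 replicate 1 or 4 or control replicate 3 (up to 0.0548).

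The gene that did not pass, Mcm3, was at 681, 718, 715 and 702 CPM with RGX-104 and 715, 716, 713 and 731 CPM in controls, and RGX-104 replicates 2 and 3 lay among the controls. Its log2 fold change was -0.03 ± 0.03 (SE; edgeR adjusted p = 0.536), against -0.11 to -0.09 for the other 5 subunits. Whether Mcm3 responded differently from them was not tested. Summed over the 6 genes, the helicase was at 3798 ± 62.6 CPM with RGX-104 and 4033 ± 63.2 CPM in controls (SD, n = 4 each), so the sum fell by 5.81%.

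**Figure D2:**
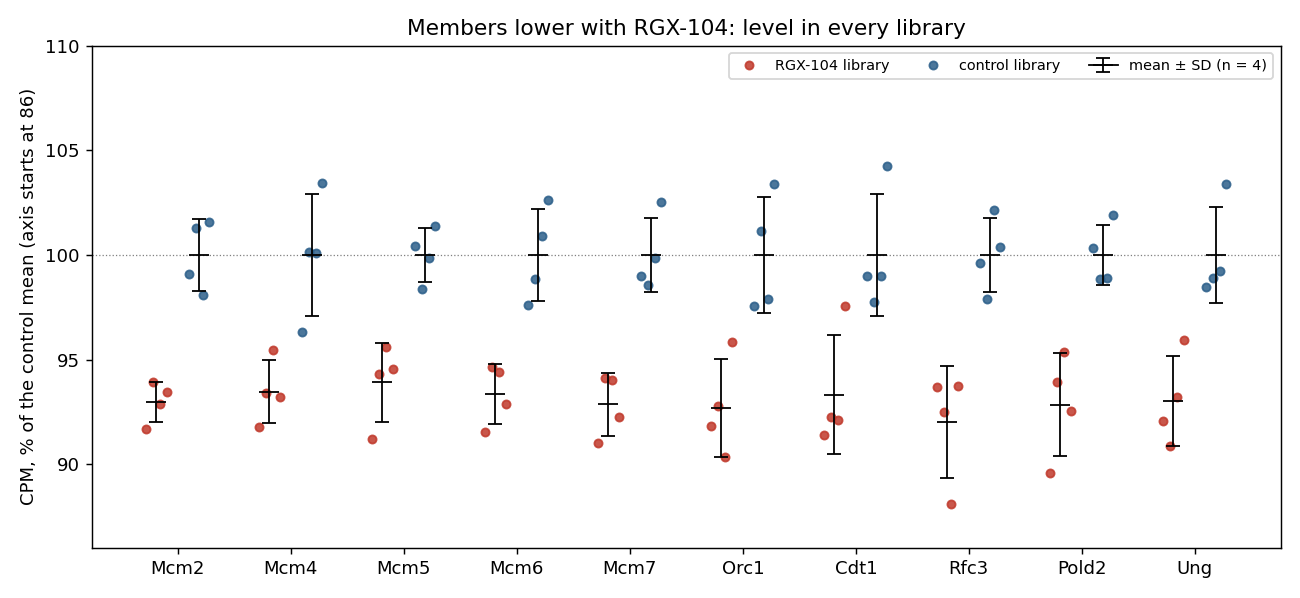
The plot of the 10 called members shows the CPM of every library as a percentage of that gene's control mean (vertical axis, which starts at 86), with RGX-104 libraries left of control libraries and the mean ± SD of 4 libraries in black. In each gene the 4 RGX-104 points lie below the 4 control points, and the gap between the groups is narrow in Cdt1, where RGX-104 replicate 4 stands above the other 3.

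The letters near the gene starts were searched for known cell cycle words. The choice of genes did not use sequence, but E2F sites are a known shared feature of promoters of such genes. A high share of E2F matches among the members is therefore no independent result. E2F factors are known to bind words of the form TTTCGCGC, TTTCCCGC, TTTGGCGC and TTTGCCGC, and these 4 words were searched on both strands in RefSeq promoter entries of GRCm38.p6, each with 250 bases before and 50 bases after a gene start. Entries were held for 34 members, and 14 of these genes (41.2%) had a match, against 2.6% of the 27025 genes with an entry. The share was 6 of 9 among members called lower and 8 of 25 among those not called. Of 20 matches in members 1 overlapped the word CCAAT, in Mcm7, and 4 overlapped each other in pairs on opposite strands, in Mcm5 and Mcm6. The 7 members without an entry were Mcm4, Gins1, Gins2, Rfc2, Prim2, Pole and Ccne2.

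The promoters of Mcm6 and Mcm2 are shown because both genes were called lower while the first held 3 E2F matches and the second held none. Each line gives the 180 bases before the start, 5′ to 3′ along the gene, with E2F matches in capitals, where 2 overlapping matches of Mcm6 form 1 run.
Mcm6, chr1:128359706-128359885 (- strand): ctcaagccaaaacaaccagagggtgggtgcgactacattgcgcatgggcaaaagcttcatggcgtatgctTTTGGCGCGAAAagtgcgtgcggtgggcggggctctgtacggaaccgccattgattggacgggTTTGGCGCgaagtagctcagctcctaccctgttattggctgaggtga
Mcm2, chr6:88898781-88898960 (- strand): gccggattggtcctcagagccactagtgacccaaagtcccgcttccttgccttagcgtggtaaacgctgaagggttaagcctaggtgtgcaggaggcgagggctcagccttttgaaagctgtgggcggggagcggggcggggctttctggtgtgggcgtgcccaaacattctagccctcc

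Single sites of 30 bases are shown for the other called members with a match and for 2 members that were not called, Mcm3 and Cdc6, in the direction of the gene and with every match that lies whole within the line in capitals.
Mcm5, chr8:75109345-75109374 (+ strand): gcgccaagaacTTTCGCGCCAAAacgtcca
Mcm7, chr5:138171849-138171878 (- strand): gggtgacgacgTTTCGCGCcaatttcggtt
Orc1, chr4:108579416-108579445 (+ strand): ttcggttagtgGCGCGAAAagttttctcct
Cdt1, chr8:122568035-122568064 (+ strand): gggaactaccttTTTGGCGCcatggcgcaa
Rfc3, chr5:151651200-151651229 (- strand): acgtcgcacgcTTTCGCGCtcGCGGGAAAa
Mcm3 (not called), chr1:20820263-20820292 (- strand): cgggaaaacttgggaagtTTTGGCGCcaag
Cdc6 (not called), chr11:98908002-98908031 (+ strand): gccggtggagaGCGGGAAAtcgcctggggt

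At these sites Mcm5, Mcm7 and Rfc3 held the word TTTCGCGC, and Orc1 held it on the opposite strand. Mcm5 also held TTTGGCGC on the opposite strand, overlapping the first word, and Rfc3 and Cdc6 held TTTCCCGC on the opposite strand. Cdt1 and the uncalled Mcm3 held the same word, TTTGGCGC, so this word occurred near both a called and an uncalled gene. The word CCAAT, bound by NF-Y factors, was in entries of 58.8% of the 34 members and 41.1% of all genes. The word TTTGAA of cell cycle homology regions was in 11.8% and 20.2%. The DR4 element of LXR, searched on both strands as an exact direct repeat with a spacing of 4 bases, was in entries of 0 of 34 members and 4 of 27025 genes. A match is a description of letters and not a binding site.

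Licensing and firing genes were lower in 7 of 8 estimates, of which Orc1 and Cdt1 passed. Orc1, the largest subunit of the origin recognition complex, was at 73.4, 74.2, 72.2 and 76.6 CPM with RGX-104 and 78.0, 80.9, 78.3 and 82.7 CPM in controls, and fell by 7.32% (-0.11 ± 0.03, SE; edgeR adjusted p = 0.0314). Its groups did not overlap, with 76.6 CPM the highest with RGX-104 and 78.0 CPM the lowest in controls. An opposite-strand gene model, Gm12743, overlaps its exons. Cdt1, which loads the helicase and is degraded once S phase begins, was at 165, 167, 167 and 177 CPM with RGX-104 and 179, 177, 179 and 189 CPM in controls, and fell by 6.69% (-0.10 ± 0.03, SE; edgeR adjusted p = 0.0349). Its groups came close to each other at RGX-104 replicate 4 (176.6 CPM) and control replicate 2 (177.0 CPM).

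Both calls were sensitive to single libraries. Orc1 lost its call without RGX-104 replicate 1, 2 or 3 or control replicate 2 or 4 and after thinning to equal depth (adjusted p up to 0.114). Cdt1 lost it without RGX-104 replicate 1, 2 or 3 or control replicate 3 or 4 (up to 0.112).

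Cdc6, the partner of Cdt1 in loading, was at 143 ± 3.59 CPM with RGX-104 and 147 ± 5.41 CPM in controls (SD, n = 4 each), and its groups overlapped (edgeR adjusted p = 0.447). Orc6, another origin recognition subunit, was at 131 ± 3.10 CPM with RGX-104 and 132 ± 4.23 CPM in controls (edgeR adjusted p = 0.916), and its exons overlap Vps35 on the opposite strand. Mcm10, a factor that activates the loaded helicase, was at 182, 182, 185 and 187 CPM with RGX-104 and 191, 196, 192 and 194 CPM in controls. It did not overlap between groups yet missed the threshold (log2 fold change -0.07 ± 0.03, SE; edgeR adjusted p = 0.102).

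The GINS genes encode parts of the complex that joins the helicase at firing. Gins1 was at 38.2 ± 1.27 CPM with RGX-104 and 40.7 ± 1.05 CPM in controls (edgeR adjusted p = 0.132), Gins2 at 58.1 ± 0.927 and 60.0 ± 0.974 CPM (0.407) and Gins3 at 35.5 ± 0.419 and 35.1 ± 1.23 CPM (0.832; SD, n = 4 each). Gins1 and Gins2 did not overlap between groups and Gins3 did. Most of the Gins2 exon sequence is shared with Gse1 on the opposite strand.

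In the clamp and its loader 1 of 6 genes passed. Pcna, the sliding clamp, was at 516, 521, 514 and 522 CPM with RGX-104 and 508, 520.0, 527 and 541 CPM in controls. The RGX-104 libraries lay inside the control range, and the log2 fold change was -0.02 ± 0.03 (SE; edgeR adjusted p = 0.767). Rfc3, a small subunit of the loader, was at 70.3, 69.5, 66.1 and 70.4 CPM with RGX-104 and 74.8, 73.5, 76.7 and 75.4 CPM in controls. It fell by 8.01%, the largest fitted change among the 41 members (-0.12 ± 0.03, SE; edgeR adjusted p = 0.0171), and it lost its call without RGX-104 replicate 3 or control replicate 3 (adjusted p up to 0.0895).

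The other loader subunits did not pass. Rfc5 came nearest, at 115, 115, 113 and 112 CPM with RGX-104 and 118, 121, 120.2 and 122 CPM in controls without overlap (edgeR adjusted p = 0.0657), and it was called lower by limma-voom and without control replicate 1. Rfc1, the large subunit, was at 252 ± 3.80 CPM with RGX-104 and 257 ± 5.85 CPM in controls, Rfc2 at 151 ± 1.29 and 155 ± 2.86 CPM, and Rfc4 at 74.0 ± 2.05 and 75.3 ± 3.01 CPM (SD, n = 4 each). The edgeR adjusted p-values of these 3 genes were 0.584, 0.387 and 0.691, and their groups overlapped. Exons of Rfc2, Rfc4 and Rfc5 overlap opposite-strand genes (Lat2, Eif4a2 and Wsb2).

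Among polymerase and primase genes Pold2 alone passed. Pold2, an accessory subunit of polymerase delta, was at 127, 134, 136 and 132 CPM with RGX-104 and 143, 141, 141 and 145 CPM in controls, and fell by 7.15% (-0.11 ± 0.03, SE; edgeR adjusted p = 0.0175). RGX-104 replicate 1 was the lowest library, and the call was lost without RGX-104 replicate 1 or 4 (adjusted p up to 0.0784). Pold1, the catalytic subunit, was at 299, 311, 309.8 and 304 CPM with RGX-104 and 332, 323, 313 and 311 CPM in controls. Its groups touched but did not overlap, 310.88 CPM in RGX-104 replicate 2 against 310.91 CPM in control replicate 4 (edgeR adjusted p = 0.165).

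Polymerase alpha and primase start each new strand, and none of their genes passed. Pola1 was at 172 ± 7.71 CPM with RGX-104 and 173 ± 6.98 CPM in controls, and Pola2 at 185 ± 1.66 and 189.7 ± 2.13 CPM (SD, n = 4 each; edgeR adjusted p = 0.858 and 0.446). Prim1, the catalytic primase subunit, had the highest log2 fold change of the 41 members at 0.04 ± 0.03 (SE), with 127 ± 3.47 CPM in RGX-104 libraries and 123 ± 4.06 CPM in controls (edgeR adjusted p = 0.531). Prim2 was at 87.2 ± 1.17 and 87.0 ± 2.05 CPM (edgeR adjusted p = 0.973). For polymerase epsilon, which copies the leading strand, Pole was at 250.4 ± 9.45 CPM with RGX-104 and 253 ± 13.1 CPM in controls, and Pole2 at 60.5 ± 0.543 and 59.8 ± 1.90 CPM (edgeR adjusted p = 0.875 and 0.821). The groups overlapped in all 6 genes.

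The genes that protect single strands and finish Okazaki fragments had log2 fold changes between -0.06 and -0.05, and 0 of 4 passed (0 also with DESeq2 and limma-voom, and 1, Rpa1, at an unadjusted p under 0.05). Fen1, the flap endonuclease, was at 207, 208, 209 and 205 CPM with RGX-104 and 210.4, 211, 215 and 226 CPM in controls, without overlap (log2 fold change -0.06 ± 0.03, SE; edgeR adjusted p = 0.250). Lig1, the ligase that seals the fragments, was at 426 ± 11.6 CPM with RGX-104 and 441 ± 8.91 CPM in controls (edgeR adjusted p = 0.274). The single-strand binding genes Rpa1 and Rpa2 were at 362 ± 6.46 and 144 ± 1.38 CPM with RGX-104 and at 376 ± 5.01 and 148 ± 4.30 CPM in controls (SD, n = 4 each; edgeR adjusted p = 0.201 and 0.374). Much of the Fen1 exon sequence overlaps the opposite-strand model Gm10143.

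Genes of deoxynucleotide synthesis had log2 fold changes between -0.03 and 0.03, and 0 of 4 passed (0 also with DESeq2 and limma-voom, and 0 at an unadjusted p under 0.05). Rrm2, the regulated subunit of ribonucleotide reductase, was at 533, 529, 524 and 532 CPM with RGX-104 and 493, 512, 538 and 556 CPM in controls. The 4 RGX-104 libraries lay inside the wider control range (log2 fold change 0.01 ± 0.03, SE; edgeR adjusted p = 0.866). Rrm1, its large subunit, was at 638, 659.7, 666 and 648 CPM with RGX-104 and 629, 673, 667 and 693 CPM in controls, also inside the control range (edgeR adjusted p = 0.620).

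Tyms, thymidylate synthase, was at 109 ± 2.23 CPM with RGX-104 and 107 ± 1.23 CPM in controls, and the thymidine kinase gene Tk1 at 139 ± 2.33 and 139 ± 3.13 CPM (SD, n = 4 each; edgeR adjusted p = 0.628 and 0.987). Summed over the 4 genes the level was 1430 ± 4.65 CPM with RGX-104 and 1436 ± 50.3 CPM in controls. The median log2 fold change was 0.01 for these genes and -0.10 for the helicase. The difference between the roles was not tested.

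Ung, the uracil DNA glycosylase that removes uracil from new DNA, was at 62.4, 61.6, 63.2 and 65.1 CPM with RGX-104 and 66.8, 67.1, 67.3 and 70.1 CPM in controls, and fell by 7.01% (-0.10 ± 0.03, SE; edgeR adjusted p = 0.0431). Its call was the least stable of the 10. It was kept under 9 of 18 alternatives and lost with DESeq2, with scaling by library totals, and without any of RGX-104 replicates 1, 2 and 3 or control replicates 2, 3 and 4 (adjusted p up to 0.144). Uhrf1, which recruits the maintenance DNA methyltransferase to new strands, was at 580.4 ± 10.5 CPM with RGX-104 and 593 ± 8.15 CPM in controls (SD, n = 4 each), and its groups overlapped (edgeR adjusted p = 0.523).

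Of the 3 regulators of the G1/S transition 0 passed with edgeR, with DESeq2 or with limma-voom. At an unadjusted p under 0.05 in edgeR there were 2, Ccne1 and Ccne2. E2f1, an activating E2F factor, was at 81.5, 79.8, 78.4 and 79.1 CPM with RGX-104 and 80.1, 77.6, 79.8 and 81.2 CPM in controls, with overlapping groups and a log2 fold change of 0.00 ± 0.03 (SE; edgeR adjusted p = 0.994). The cyclin E genes, whose products activate Cdk2, had lower estimates. Ccne1 was at 148, 138, 139 and 143 CPM with RGX-104 and 148, 145, 150.1 and 159 CPM in controls, and RGX-104 replicate 1 lay among the controls (-0.08 ± 0.03, SE; edgeR adjusted p = 0.101). Ccne2, the lowest member in level, was at 24.2, 25.0, 23.4 and 24.1 CPM with RGX-104 and 26.2, 27.1, 24.8 and 26.4 CPM in controls, and its groups overlapped through RGX-104 replicate 2 and control replicate 3 (-0.11 ± 0.04, SE; edgeR adjusted p = 0.110).

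Some libraries were often the highest or the lowest for the members. Control replicate 4 was the highest of all 8 libraries for 21 members and the highest control for 23, and RGX-104 replicate 1 was the lowest of all 8 for 15. RGX-104 replicate 1 was also the highest RGX-104 library for 8 members. The same counts were not made over all tested genes, so these ranks are not shown to be particular to the members. Summed over the 41 members, RGX-104 replicates 1 to 4 held 10438, 10641, 10686 and 10582 CPM, and control replicates 1 to 4 held 10808, 10972, 10968 and 11218 CPM. The groups did not overlap, and the mean fell by 3.68% with RGX-104. Summed over the 35 members outside the Mcm2-7 helicase, the groups overlapped. That sum was 6727 to 6836 CPM with RGX-104 and 6831 to 7096 CPM in controls. Without control replicate 4 the median log2 fold change of the members was -0.03 and 7 members were called lower.

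**Figure D3:**
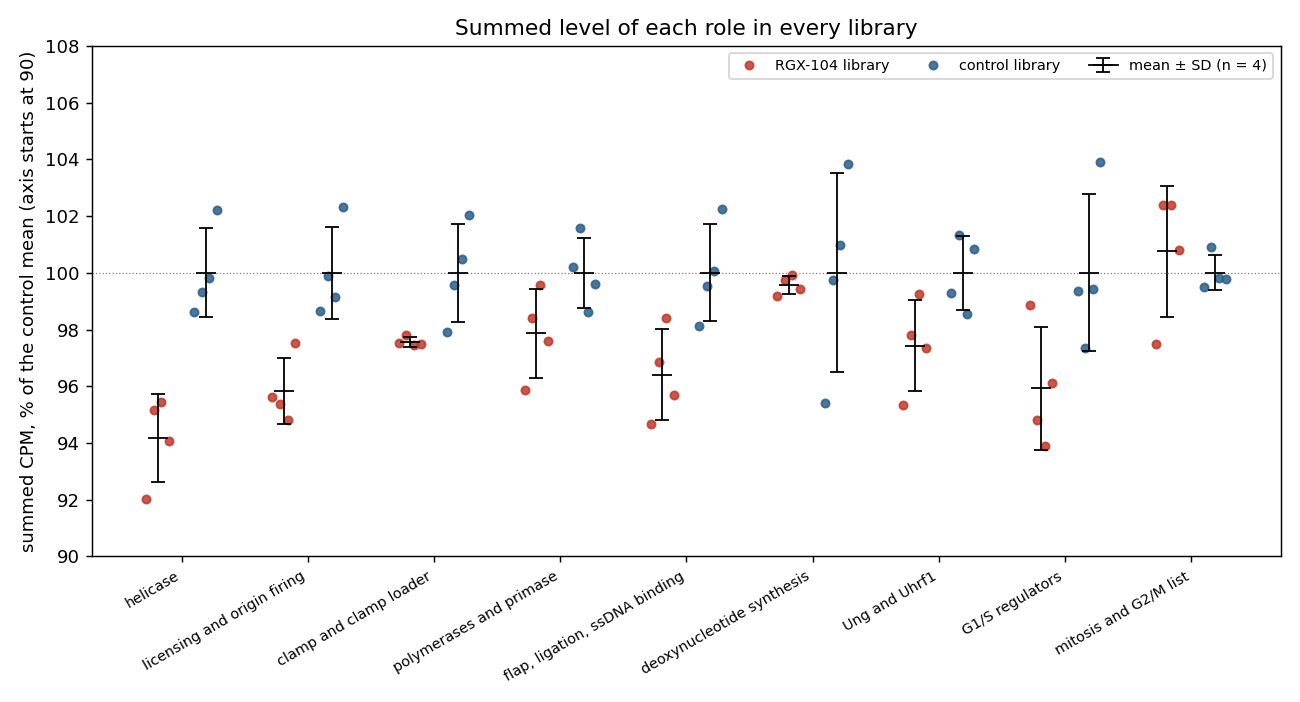
The plot of summed levels gives, for each role and for a list of mitosis genes, the summed CPM of every library as a percentage of the control mean (vertical axis, which starts at 90), with RGX-104 libraries left of control libraries and the mean ± SD of 4 libraries in black. The groups are furthest apart in the helicase, at 3712 to 3850 CPM with RGX-104 against 3977 to 4123 CPM in controls. They do not overlap for the helicase, for licensing and firing or for the clamp and its loader. For the clamp and its loader they nearly touch, at 1181.1 CPM in RGX-104 replicate 2 and 1182.4 CPM in control replicate 1. They overlap for the other 5 roles and for mitosis genes.

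Levels between genes were compared per length of the longest coding transcript in the GENCODE basic set. In CPM per kilobase, Pcna had the highest level, 341 with RGX-104 and 345 in controls, and Ccne2 the lowest, 8.04 and 8.69. The 6 helicase genes spanned 129.7 (Mcm2) to 232 (Mcm3) CPM per kilobase with RGX-104 and 139 to 237 in controls. Rrm2 stood at 241 with RGX-104 and 239 in controls, near Mcm3. The licensing factors differed among themselves. Orc1 was at 24.6 and Cdc6 at 31.0 CPM per kilobase in RGX-104 libraries, against 26.5 and 31.9 in controls. Orc6 and Cdt1 were higher, at 89.4 and 77.2 with RGX-104 and 89.9 and 82.7 in controls.

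Other genes of replication were taken from separate lists. For 34 tested genes of forks and origins the median log2 fold change was -0.01. Of these genes 1 (2.94%) fell and 0 rose, against 4.13% of all tested genes called lower and 4.82% called higher. The 1 was Pole4, a small subunit of polymerase epsilon, at 76.2 ± 1.99 CPM with RGX-104 and 82.0 ± 2.38 CPM in controls (SD, n = 4 each; edgeR adjusted p = 0.0370), and it lost its call without RGX-104 replicate 1, 2 or 3 or control replicate 3 or 4. Cdc45, Pold4 and Chtf8 had at most 1 count in any library and were not tested, and Cdc45 and Pold4 have a second row in the table under the same symbol with a numbered suffix, so these counts are not read as low expression. Of 12 chromatin assembly and maintenance genes 1 (8.33%) fell. This gene, Supt16, encodes a subunit of the histone chaperone FACT and fell by 6.19% (edgeR adjusted p = 0.0316). Of 27 checkpoint and repair genes 1 (3.70%) fell, a share under that of all tested genes. This gene, Hus1, encodes a subunit of the checkpoint clamp and fell by 7.56% (edgeR adjusted p = 0.0257). Supt16 lost its call without RGX-104 replicate 1, 2 or 4 or control replicate 2, 3 or 4, and Hus1 without any 1 of the 4 RGX-104 replicates or without control replicate 2.

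Other nucleotide synthesis genes leaned lower, with 6 (17.6%) called lower and 2 (5.88%) called higher of 34 and a median log2 fold change of -0.05. Among all tested genes 4.13% were called lower and 4.82% higher. The estimate was below 0 for 27 of the 34 (79.4%), near the 80.5% of the members. All 4 RGX-104 libraries lay below all 4 controls for 9 of the 34 (26.5%) and above them for 2. The shares of all tested genes were 7.45% and 7.07%. Samhd1, which breaks down deoxynucleotide triphosphates, had the largest fall of the list, at 283, 295, 292 and 283 CPM with RGX-104 and 353, 368, 357 and 360.3 CPM in controls (-0.32 ± 0.03, SE; edgeR adjusted p = 2.85e-09). The highest RGX-104 library, at 295 CPM, lay below the lowest control, at 353 CPM. Adss, an enzyme of AMP synthesis, fell by 8.85% (edgeR adjusted p = 0.00585). Ctps2, a CTP synthase, rose by 0.18 ± 0.04 (log2, SE; edgeR adjusted p = 0.00325), and Adssl1, a paralog of Adss, rose by 0.46 ± 0.13 on the log2 scale, with 4.25 ± 0.491 CPM with RGX-104 and 3.09 ± 0.588 CPM in controls and overlapping groups (edgeR adjusted p = 0.0189). The other 4 that fell were Dctpp1, Ppat, Umps and Adsl, outside the rule for named genes. Samhd1, Adss and Ctps2 were called whichever library was left out. The count of 6 lower was 2 without RGX-104 replicate 2, 3 or 4 or control replicate 4, and 3 without control replicate 3, and Adssl1 lost its call without RGX-104 replicate 2 or 3 or control replicate 1 or 4.

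Of 28 other G1/S regulators 2 (7.14%) fell and 1 (3.57%) rose, against 4.13% and 4.82% of all tested genes. Myc, a transcription factor that drives growth and cell cycle entry, was at 433, 417, 423 and 464 CPM with RGX-104 and 481, 499, 524 and 545 CPM in controls (-0.24 ± 0.04, SE; edgeR adjusted p = 7.34e-04). Ccnd2, a D-type cyclin that acts in G1, was at 752, 721, 728 and 779 CPM with RGX-104 and 879, 868, 843 and 900.0 CPM in controls (-0.23 ± 0.03, SE; edgeR adjusted p = 2.50e-06). The log2 fold changes of both were larger in size than those of the 41 members, and both genes were called whichever library was left out. E2f2, an activating E2F factor, rose to 117 ± 1.03 CPM with RGX-104, against 109 ± 3.89 CPM in controls (SD, n = 4 each; edgeR adjusted p = 0.0293), and it lost its call without any 1 of the 4 RGX-104 replicates or without control replicate 3 or 4.

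**Figure D4:**
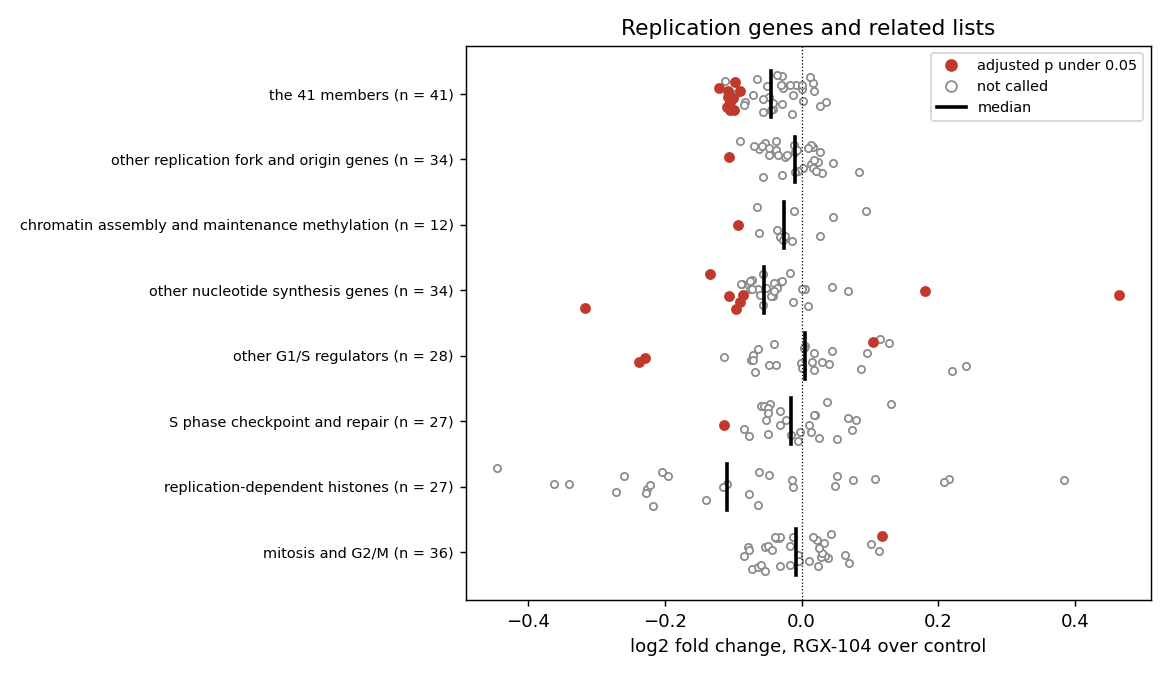
The plot of lists gives the log2 fold change of RGX-104 over control (horizontal axis) for each tested gene, 1 row per list, with genes at an adjusted p under 0.05 filled and the median as a black bar. The median of the 41 members is -0.05. It is -0.11 for the scarce replication-dependent histones, -0.05 for other nucleotide synthesis genes and -0.03 for chromatin assembly and maintenance genes. It is -0.01 for other fork and origin genes, for checkpoint and repair genes and for mitosis genes, and 0.00 for other G1/S regulators.

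Transcripts of replication-dependent histones, which most cells make in S phase without a poly(A) tail, were scarce. The 38 listed genes summed to 44.3 to 48.2 CPM with RGX-104 and 43.6 to 53.7 CPM in controls, and 0 of the 27 tested were called by edgeR, with 0 by DESeq2 and 0 by limma-voom and 1 at an unadjusted p under 0.05. Of 36 tested genes of mitosis and G2/M 0 fell and 1 (2.78%) rose, against 4.13% and 4.82% of all tested genes. The gene that rose was Anln, a cytokinesis scaffold. It rose by 0.12 ± 0.04 on the log2 scale (SE, edgeR adjusted p = 0.0426). Anln was not called by DESeq2, nor without any 1 of the RGX-104 replicates or without control replicate 3 or 4. DESeq2 and limma-voom also called 0 of these genes lower, and 9 of the 36 had an unadjusted p under 0.05 in edgeR in either direction, near the 22.2% of all tested genes. The proliferation marker Mki67 was at 1177 ± 43.9 CPM with RGX-104 and 1088 ± 78.3 CPM in controls (SD, n = 4 each), with overlapping groups. Its log2 fold change was 0.11 ± 0.05 (SE, edgeR unadjusted p = 0.0365 and adjusted p = 0.189). Mki67 was called higher without control replicate 2, and it was also called in the replicate block fit described at the end.

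Markers of the sorted cells were also measured. Of 11 tested genes of CD8 T cell identity 4 (36.4%) fell (Cd247, Cd3e, Cd8b1 and Cd8a) and 2 (18.2%) rose (Lck and Lat). Among all tested genes 4.13% were called lower and 4.82% higher. Cd8a was at 809 ± 6.26 CPM with RGX-104 and 877 ± 18.1 CPM in controls (SD, n = 4 each). The 4 lower calls held whichever library was left out, whereas Lat lost its call without RGX-104 replicate 2, 3 or 4 or control replicate 2 or 3, and Lck lost its call with DESeq2 and without any 1 library except control replicate 1. The list summed to 3879 to 3939 CPM with RGX-104 and 3933 to 4055 CPM in controls. Of 20 myeloid and dendritic cell markers, 14 had under 35 counts in every library, and 2 of those, H2-Aa and H2-Ab1, were at 0 but have further rows with a numbered suffix. The list summed to 758 to 776 CPM with RGX-104 and 771 to 821 CPM in controls, most of it Ccr7, which T cells also express and which fell by 6.95% (edgeR adjusted p = 0.0125). Ccr7 lost its call without RGX-104 replicate 1 or control replicate 3. The other 7 of the 8 tested genes of this list had positive log2 fold changes, the median over the 8 was 0.29, and 2 rose. Cd74, the invariant chain of antigen presentation, was at 33.2 ± 0.983 CPM with RGX-104 and 26.5 ± 1.18 CPM in controls (edgeR adjusted p = 6.12e-06). Ccl22, a chemokine gene, was at 4.83 ± 0.324 CPM with RGX-104 and 2.05 ± 0.248 CPM in controls (1.24 ± 0.11, log2, SE; edgeR adjusted p = 1.45e-08). Both were called whichever library was left out. Of markers of other cell types, 1 of 2 tested CD4 T cell genes (Zbtb7b) and 1 of 2 tested NK cell genes (Nkg7) fell, 0 of 1 B cell gene and 0 of 1 erythroid gene passed, and no neutrophil gene had the counts to be tested. Nkg7 was called whichever library was left out, and Zbtb7b lost its call with DESeq2 and without RGX-104 replicate 1, 2 or 4 or control replicate 1, 2 or 3. The 5 NK cell markers summed to 219 to 237 CPM with RGX-104 and 247 to 266 CPM in controls, most of it Nkg7, which CD8 T cells also express. The part of these markers in the changes of replication genes was not tested.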

How the data were processed

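RNA of FACS-sorted CD8+ OT-I T cells was sequenced in 8 samples after an Illumina TruSeq preparation, per the labels' protocols. The values are whole-number counts per gene as deposited by the authors. Cutadapt 2.10, STAR 2.7.5, R 4.1.0, DESeq2 1.4 and the build GRCm38 are named in the submitters' processing notes. How reads were counted, with which annotation and whether by strand, is not given in the sources used here. Control columns were matched to samples by number. The RGX-104 columns show the group only and were numbered by column, and 0 columns were left out.

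Counts were fitted with edgeR 4.0.16 in R 4.3.3 (quasi-likelihood, robust, TMM scaling), after filterByExpr with a minimum count of 10 and a minimum total of 15. P-values were adjusted by Benjamini-Hochberg over all 13290 genes tested, and the threshold was 0.05. DESeq2 1.42.0, limma 3.58.1 and other scalings, filters and leave-one-out fits were alternatives. The edgeR fit was tested on simulated data. Confidence in a value is limited by 4 libraries a group at 30642316 to 37714355 counts. No pair of libraries was merged, since each pair differed by more than counting noise.

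The members and lists were chosen with earlier results of these data known. Named by rule beyond the members were the up to 4 called genes of each pathway list with the largest absolute log2 fold change, Abca1, Abcg1 and Mki67. Other genes named (the remaining called nucleotide synthesis genes, cell type markers, and listed genes too low to test) were chosen after their values were seen. Promoter letters are from RefSeq on GRCm38.p6, and transcript lengths and exon overlaps are from GENCODE annotation.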

Additional observations from a re-analysis of the deposited data

Results flagged for a closer look

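In 4 of 82 groups checked (each of the 41 members in each group of 4 libraries), 1 library stood apart from the other 3 by most of the group's range. Chance alone flags about 1 in 20 groups. Mcm3 was at 731.1 CPM in control replicate 4, above the 713.3 to 716 CPM of the other controls. Cdt1 was at 176.6 CPM in RGX-104 replicate 4, above 165.5 to 167 CPM in the other RGX-104 libraries. Lig1 was at 427.7 CPM in control replicate 1, below the 444.9 to 445.9 CPM of the other controls. Ung was at 70.11 CPM in control replicate 4, above 66.76 to 67.29 CPM in the other controls.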

How the results depend on the processing

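The number of members called lower was 9 to 11 under other scalings, filters and tools, with suffix rows added and with libraries thinned to equal depth, the last chosen after seeing the data. It was 2 at an adjusted p under 0.01, where 344 genes in all were called higher and 280 lower. Leaving out 1 library gave 3 to 11 members lower and 0 higher. The cause of these changes was not tested, but each such fit has fewer samples. The members' median log2 fold change stayed between -0.05 and -0.03 under every alternative run, and the median over all tested genes moved by at most 0.01. No called member changed direction under any of the 18 alternatives. The titles number the samples without repeats between groups, but the column headings of the count table number each group alike. A fit with that number as a replicate block, added after seeing the data, called 12 members lower (the 10, Rfc5 and Ccne1) and 0 higher, and 1109 genes in all higher and 906 lower. Deviations of same-numbered libraries correlated at 0.0430 to 0.157, and 7 of 8 libraries correlated best with their own number, which is a hint from the data and not from the design. Each member had at least 747 counts in each library, and the SE of its log2 fold change was 0.03 to 0.04.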
